A study of Mus musculus with 2 samples.

Results

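Chemokines are small secreted proteins that guide migrating cells through G protein-coupled receptors, and several ligands often share a receptor. Atypical chemokine receptors (Ackr) bind chemokines without the usual G protein signal and take them up. In skin, Ackr4 takes up Ccl19, Ccl21 and Ccl25, while dendritic cells use Ccr7 to follow Ccl19 and Ccl21 towards lymphatic vessels.

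The 55 genes described here are all those, of 19059 in the count files, whose symbol is a chemokine or chemokine receptor stem (Ccl, Cxcl, Cx3cl, Xcl, Ccr, Cxcr, Cx3cr, Xcr or Ackr) with a number and at most 1 letter. They comprise 34 ligands, 17 receptors and 4 atypical receptors. Intact dorsal skin of 1 untreated wildtype C57BL/6J mouse and of 1 untreated Eppk1 knockout mouse (Eppk1-/-), backcrossed to C57BL/6J, was dissociated with enzymes, fixed and profiled with ligated probe pairs (10x Genomics Flex). Eppk1 encodes epiplakin, a linker protein of the epithelial cytoskeleton. The labels give neither age nor sex. With 1 library per genotype no difference between genotypes could be tested, and genotype, mouse and library cannot be told apart. All intervals are exact 95% intervals (Poisson for levels, conditional on the total for ratios, Clopper-Pearson for cell shares), and they cover counting error only.

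Levels are given as UMIs (unique molecular identifiers, each standing for 1 captured molecule) of a gene per 1000000 UMIs of a cell type (CPM), summed over its cells in a library. Probe pairs differ in number and yield between genes, so levels were compared between cell types and libraries, not between genes. Ratios are log2 of Eppk1-/- over wildtype. A member was counted as higher or lower in a cell type where the log2 ratio passed 0.5 and the member held at least 50 UMIs over both libraries.

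After filtering, 8875 of 9179 wildtype and 8617 of 8811 Eppk1-/- cells remained, from libraries of 77638793 and 65118304 UMIs. Marker genes assigned them to keratinocytes (5642 wildtype and 4162 Eppk1-/- cells), fibroblasts (1770 and 2736), macrophages (582 and 855), Langerhans cells (146 and 119), other myeloid cells with class II genes (106 and 147), T or NK lymphocytes (161 and 120) and mast cells (51 and 67). Endothelial cells (23 and 21) were too few to enter the ranking of cell types. The libraries shared 1211 droplet barcodes, and 2 of 31 clusters drew over 90% of their cells from 1 library. Eppk1 itself was at 2978 CPM (2961 to 2996) in wildtype and 786 CPM (775 to 797) in Eppk1-/- keratinocytes, a log2 ratio of -1.92 (-1.94 to -1.90), so its probes still gave UMIs in the knockout library.

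Of the 55 members, 47 held at least 50 UMIs over both libraries. The other 8 were Cxcr1, Cxcr2, Cxcr5, Ccr10, Ccl17, Ccl28, Cxcl15 and Cxcl17, of which Cxcr1 and Cxcl15 had none. Cxcr2, the receptor through which neutrophils sense Cxcl1 and Cxcl2, held 12 and 10 UMIs in the wildtype and Eppk1-/- libraries. In each library alone 41 members held at least 50 UMIs. Among the ranked cell types, 33 of them had their highest level in the same type in both libraries. The remaining 8 were Ccl21a, Ccl22, Cxcl5, Cxcl9, Cxcl13, Cx3cl1, Ccr1 and Ccr2. A further 6 (Ccl1, Ccl26, Ccr3, Ccr6, Ccr9 and Xcr1) reached 50 UMIs over both libraries together but not in each.

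Macrophages led 10 of the 33 members, all of them ligands. Fibroblasts led 7, of which 4 were ligands (Cxcl1, Cxcl12, Ccl11 and Ccl19) and 3 atypical receptors (Ackr1, Ackr2 and Ackr3). The few endothelial cells, which were not ranked, had higher levels of Ackr1 and Ackr2. T or NK lymphocytes led 6, with the ligands Xcl1 and Ccl5 and the receptors Cxcr6, Ccr8, Ccr4 and Cxcr3. The other class II myeloid cells led 4, among them Cxcl3 and the receptors Cxcr4 and Ccr7. Keratinocytes led 3 (Ccl20, Cxcl14 and Ackr4), mast cells led 2 (Ccl2 and Ccl25) and Langerhans cells led 1 (Cxcl16). The intervals of the first and second cell type overlapped for Cxcr3 in both libraries (37.7 and 27.2 CPM in lymphocytes beside 36.4 and 22.9 CPM in macrophages) and for Cxcr4, Ccl9, Ccl25 and Ackr2 in Eppk1-/-, so these could not be ordered there.

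**Figure D1:**
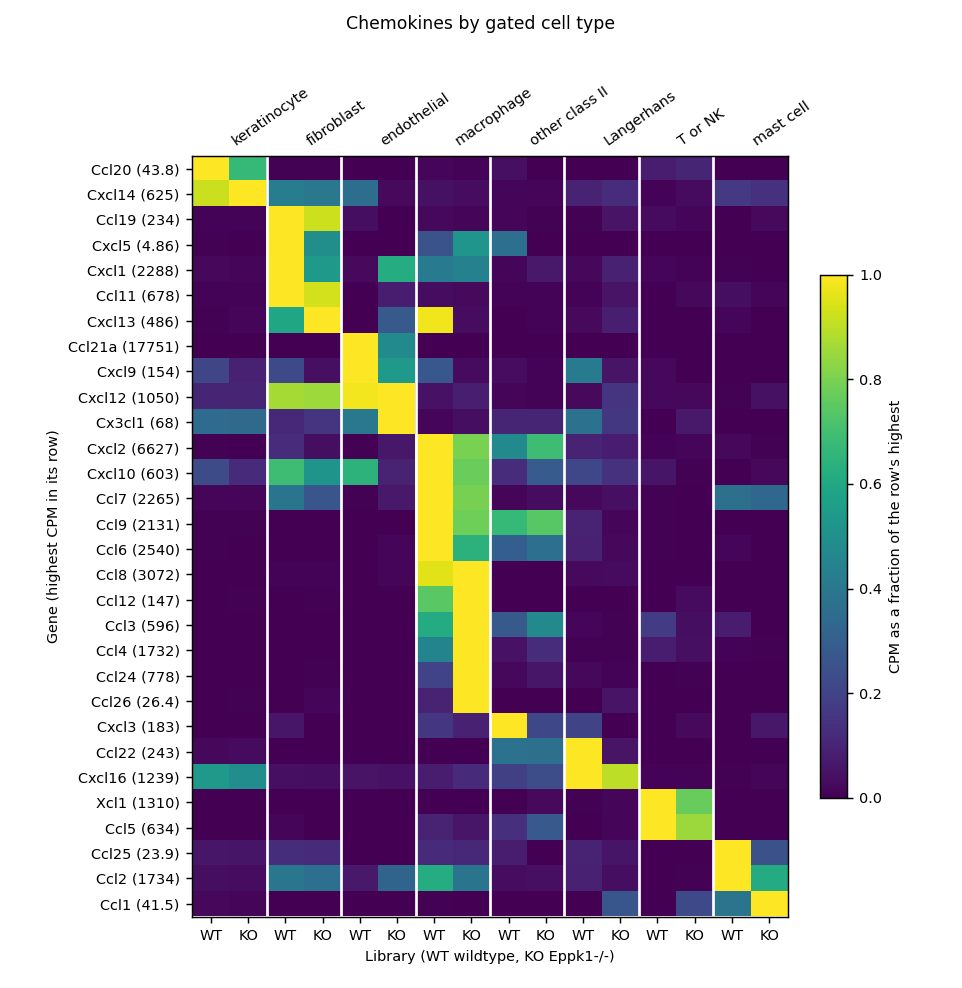
Chemokine ligands with at least 50 UMIs (rows) by gated cell type and library (columns, WT wildtype and KO Eppk1-/-). Colour shows the CPM relative to the highest value of the row. Ccl19 and Ccl11 are highest in fibroblasts and Ccl8 in macrophages of both libraries, whereas Cxcl13 has its highest level in macrophages of the wildtype and in fibroblasts of the Eppk1-/- library.

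**Figure D2:**
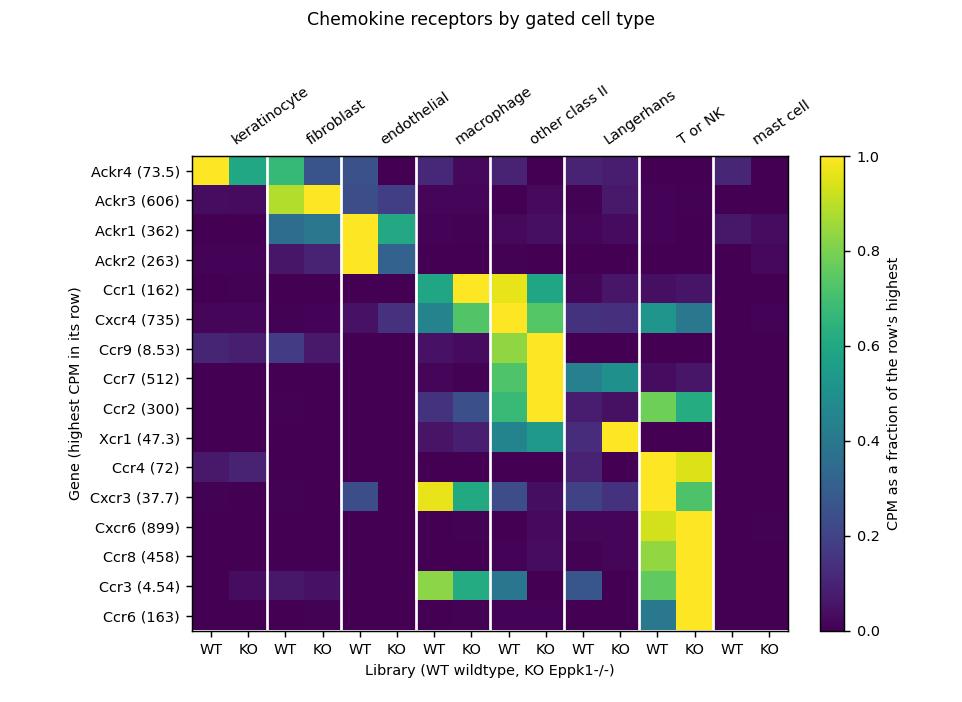
Named receptors and atypical receptors with at least 50 UMIs (rows) by gated cell type and library (columns, WT wildtype and KO Eppk1-/-). Colour shows the CPM relative to the highest value of the row. Ackr4 is highest in keratinocytes, Ackr3 in fibroblasts, Ccr7 in the other class II myeloid cells, and Cxcr6 and Ccr8 in lymphocytes.

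Ackr4 lies on the minus strand at chr9:104084157-104126933 (GRCm38, GENCODE M21), within the span of Acad11 on the plus strand (chr9:104063377-104127725). Its coding sequence occupies 1 exon, at chr9:104098697-104099746. Of 3586 and 1507 Ackr4 UMIs in the wildtype and Eppk1-/- libraries, 76.2% and 73.5% lay in keratinocytes. The level there was 73.5 CPM (70.8 to 76.3) in wildtype and 43.8 CPM (41.3 to 46.5) in Eppk1-/-, a log2 ratio of -0.75 (-0.85 to -0.65). Acad11 was at 40.2 and 38.4 CPM in the same cells, a log2 ratio of -0.07 (-0.18 to 0.05).

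Within keratinocytes, Ackr4 was highest in the basal class and in the bulge and outer sheath class. Basal cells had 139 CPM (133 to 145) in wildtype and 83.3 CPM (78.0 to 88.9) in Eppk1-/-, a log2 ratio of -0.74 (-0.85 to -0.63). Bulge and outer sheath cells had 151 CPM (126 to 179.7) in wildtype and 116 CPM (88.7 to 149) in Eppk1-/-, a log2 ratio of -0.38 (-0.85 to 0.07), an interval that includes 0. In wildtype the basal and bulge intervals overlapped, so these classes could not be ordered there. Upper follicle cells had 33.4 and 26.0 CPM, a log2 ratio of -0.35 (-0.91 to 0.17). Spinous cells had 19.6 and 8.46 CPM, a log2 ratio of -1.21 (-1.59 to -0.85). Granular cells, the outermost living class, had 9 and 2 UMIs. The 9 keratinocyte clusters with at least 50 Ackr4 UMIs all had ratios below 0, from -1.46 to -0.43, and in 8 the interval left out 0.

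Fibroblasts carried Ackr4 at 49.3 CPM (45.7 to 53.3) in wildtype and 19.1 CPM (17.1 to 21.2) in Eppk1-/-, a log2 ratio of -1.37 (-1.56 to -1.18). Their 4 clusters with at least 50 Ackr4 UMIs had ratios from -1.65 to -0.59, and all 4 intervals lay below 0. Lymphocytes had no Ackr4 UMI in either library, which allows up to 10.3 and 13.6 CPM, and macrophages had 41 and 6 UMIs. Cells were then thinned to 2000 UMIs each, and 597 wildtype and 527 Eppk1-/- keratinocytes were too shallow for that. The share of thinned keratinocytes with an Ackr4 UMI was 14.8% (13.9 to 15.9) in wildtype and 9.08% (8.16 to 10.1) in Eppk1-/-. Without thinning it was 25.9% and 16.4%. Thinned macrophages, taken as a type without the gene, had 0.800% and 0.142%. Median depths were 4521.5 and 4529 UMIs in keratinocytes and 7347 and 4725 in macrophages.

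**Figure D3:**
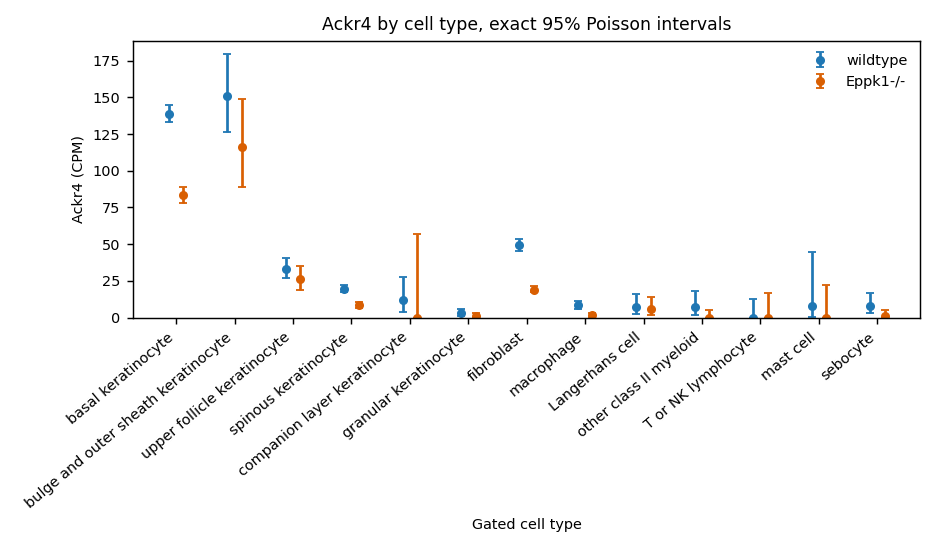
Ackr4 level (CPM, axis from 0) by gated cell type in the wildtype and Eppk1-/- libraries, with exact 95% Poisson intervals as bars. Basal keratinocytes stand at 139 and 83.3 CPM, fibroblasts at 49.3 and 19.1 CPM, and granular keratinocytes near 0.

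The ligands of Ackr4 partly shared its cells. Ccl19 was at 234 CPM (226 to 242) in wildtype and 216 CPM (209 to 223) in Eppk1-/- fibroblasts, a log2 ratio of -0.12 (-0.18 to -0.05), and fibroblasts held 92.3% and 94.8% of its UMIs. A pair of fibroblast clusters led by Col1a1 had both genes, at 984 and 556 CPM of Ccl19 beside 209 and 139 CPM of Ackr4 in one and 577 and 889 CPM beside 109.5 and 35.9 CPM in the other. Endothelial cells held 90% and 98.0% of the Ccl21a UMIs, at 17751 and 8398 CPM. In wildtype 1958 of 1959 endothelial Ccl21a UMIs lay in 11 cells gated as lymphatic. In Eppk1-/-, 4 cells gated as lymphatic held 144, and 2 of 17 cells gated as blood endothelial held 968, so the split of vessel types went against this gene there. Keratinocytes had 143 and 7 Ccl21a UMIs, with 10 cells holding 86.0% of the wildtype ones. Ccl25 had 124 and 116 UMIs in all, at 1.45 and 1.39 CPM in keratinocytes and 3.14 and 2.96 CPM in fibroblasts, and its highest level, in mast cells, rested on 3 and 1 UMIs.

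Ccr7, the signalling receptor for Ccl19 and Ccl21, had its highest level in antigen-presenting cells. The other class II myeloid cells had 370.1 CPM (321 to 424) in wildtype and 512 CPM (460.2 to 567) in Eppk1-/-, a log2 ratio of 0.47 (0.22 to 0.72). Langerhans cells had 224 CPM (193 to 258) in wildtype and 258 CPM (222 to 297) in Eppk1-/-, a log2 ratio of 0.20 (-0.10 to 0.51), and there the intervals of the genotypes overlapped. Keratinocytes, which should lack it, had 0.215 and 0.158 CPM. Ccr9, the receptor for Ccl25, held 61 and 37 UMIs, with 28 and 16 of them in spinous keratinocytes.

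Keratinocytes held 82.6% and 75.1% of the UMIs of Cxcl14, a chemokine of resting epithelium. Its keratinocyte level was 575 CPM (567 to 583) in wildtype and 625 CPM (615 to 635) in Eppk1-/-, a log2 ratio of 0.12 (0.09 to 0.15). Clusters divided, with 6 of 11 above 0, all 6 with intervals above 0, and 5 below 0, 4 with intervals below 0. Bulge and outer sheath cells stood highest at 2146 and 2752 CPM, basal cells had 1048 and 1135 CPM and spinous cells 154 and 154 CPM. Cxcl16, the membrane-bound ligand of Cxcr6, was at 672 and 606 CPM in keratinocytes, which held 89.0% and 83.5% of its UMIs, and at 1239 and 1117 CPM in Langerhans cells. Its keratinocyte log2 ratio was -0.15 (-0.18 to -0.12), and 11 of 11 clusters lay below 0. Cx3cl1, another membrane-bound chemokine, was at 23.7 and 23.5 CPM.

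Ccl20, the ligand of Ccr6, was at 43.8 CPM (41.7 to 45.9) in wildtype and 29.4 CPM (27.3 to 31.6) in Eppk1-/- keratinocytes, a log2 ratio of -0.57 (-0.70 to -0.45). The gated classes differed in direction. Granular cells had 125 and 119.8 CPM, spinous cells 40.6 and 8.77 CPM with a log2 ratio of -2.20 (-2.56 to -1.88), and upper follicle cells 32.0 and 86.6 CPM with a log2 ratio of 1.43 (1.05 to 1.83). The cluster led by Sprr1a had 56.8 and 62.6 CPM, a log2 ratio of 0.14 (-0.18 to 0.46). Of 7 keratinocyte clusters with at least 50 Ccl20 UMIs, 5 had ratios below 0, in 4 with an interval below 0, and none had an interval above 0. In keratinocytes 10 cells held 29.2% and 51.8% of its UMIs. Ccr6 had its highest level in T or NK lymphocytes, with 19 and 36 of 44 and 87 UMIs in the wildtype and Eppk1-/- libraries and a log2 ratio of 1.31 (0.49 to 2.21). Ccl22 and its receptor Ccr4 both appeared in keratinocytes, Ccl22 in granular cells at 56.0 and 76.8 CPM and Ccr4 in spinous cells at 11.8 and 17.0 CPM. Lymphocytes had 72.0 and 68.1 CPM of Ccr4, from 21 and 15 UMIs.

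In keratinocytes 35 members held at least 50 UMIs, of which 7 were higher and 8 lower in Eppk1-/-, beside 8.19% of 11911 genes past the limit (3.1% higher and 5.1% lower). The members' median log2 ratio was 0.00 and that of all genes -0.02. The lower members were Ccl20, Ccl21a, Cxcl2, Cxcl9, Cxcl10, Ackr4, Cxcr6 and Ccl6. The higher ones included Xcl1, Cxcl13, Ccl24, Ccl22, Ccr4 and Ccl4, each under 200 UMIs in a library. Of the members named here, intervals included 0 for Cxcr6 and Ccl4. Cxcl2 was at 36.7 and 19.7 CPM, a log2 ratio of -0.90 (-1.05 to -0.75), with 6 of 7 clusters below 0. Ccl6, whose highest level was in macrophages, was at 11.7 and 8.27 CPM, a log2 ratio of -0.50 (-0.75 to -0.26). The only keratinocyte cluster with at least 50 Ccl6 UMIs had -0.14 (-0.66 to 0.36). Some of the lower members, Ccl21a and Cxcl9 among them, drew most of their wildtype UMIs from 10 cells. Ccr4 had a log2 ratio of 0.53 (0.23 to 0.83), with 10 cells holding 16% and 16.8% of its UMIs. Cxcl13, Ccl22, Ccl24 and Xcl1 had log2 ratios of 0.84 (0.48 to 1.19), 0.53 (0.22 to 0.83), 1.91 (1.23 to 2.67) and 0.86 (0.06 to 1.69), with 10 cells holding at least 59.0% of the UMIs of each in either library.

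Cxcl9 and Cxcl10, ligands of Cxcr3 that interferon induces, were both lower over all keratinocytes. Cxcl10 was at 140.0 CPM (136 to 144) in wildtype and 71.4 CPM (68.1 to 74.8) in Eppk1-/- keratinocytes, a log2 ratio of -0.97 (-1.05 to -0.89). Cxcl9 was at 32.3 and 14.3 CPM, a log2 ratio of -1.17 (-1.35 to -1.0), and 10 cells held 58.9% and 80.1% of its UMIs. A cluster led by Gbp2, with 36 wildtype and 5 Eppk1-/- cells, held 1849 and 296 of the Cxcl10 UMIs and 576 and 90 of those of Cxcl9. Per UMI of that cluster the levels ran the other way, at 6664 and 12699 CPM of Cxcl10 and 2076 and 3861 CPM of Cxcl9 in wildtype and Eppk1-/-. Of 8 other clusters with at least 50 Cxcl10 UMIs, 6 had ratios below 0, and in 4 the interval left out 0. Of 5 others with at least 50 Cxcl9 UMIs, 4 had ratios below 0, in 3 with an interval below 0, and the cluster led by Ptn had 2.43 (1.70 to 3.26). The interferon-induced gene Gbp2 had a log2 ratio of -1.67 (-1.82 to -1.52), and its part in the result was not tested. Cxcr3 held 11 and 6 UMIs in lymphocytes and 175 and 90 in macrophages.

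Across fibroblasts 28 members held at least 50 UMIs, of which 5 were higher and 8 lower in Eppk1-/-, beside 15.8% of 11669 genes (9% higher and 6.81% lower). The members' median log2 ratio was -0.10 and that of all genes 0.06. The lower ones included the neutrophil attractants Cxcl1, Cxcl2, Cxcl3 and Cxcl5, which lie on chromosome 5. Cxcl1 was at 2288 CPM (2262 to 2313) in wildtype and 1239 CPM (1222 to 1255) in Eppk1-/-, a log2 ratio of -0.88 (-0.91 to -0.86). Cxcl2 was at 846 CPM (831 to 862) in wildtype and 253 CPM (246 to 261) in Eppk1-/-, a log2 ratio of -1.74 (-1.79 to -1.69). Cxcl3 had 144 and 7 UMIs, with 94.4% of the wildtype ones in 10 cells, and all UMIs of Cxcl5 (65 and 42) came from at most 10 cells per library.

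A single fibroblast cluster, led by C3 with 542 wildtype and 1145 Eppk1-/- cells, held most of the Cxcl1 and Cxcl2 UMIs of fibroblasts. There Cxcl1 was at 4804 and 1825 CPM, a log2 ratio of -1.40 (-1.43 to -1.37), and Cxcl2 at 1902 and 400.4 CPM, a log2 ratio of -2.25 (-2.30 to -2.19). In the cluster led by Gpx3 the ratios were 0.22 (0.16 to 0.29) for Cxcl1 and 0.04 (-0.12 to 0.20) for Cxcl2. The clusters thus did not share 1 direction for Cxcl1. Early response genes, which tissue dissociation can induce, had fibroblast log2 ratios above 0 for Fos (0.70), Egr1 (0.54), Atf3 (0.38), Jun (0.32) and Fosb (0.05) and below 0 for Hspa1a (-0.23) and Ier3 (-0.25), which are all 7 looked at, and their part in the result was not tested.

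The regions upstream of Cxcl1, Cxcl2, Cxcl3 and Ccl20 are shown because these ligands share a motif and were lower in fibroblasts or keratinocytes. Each runs from 250 to 31 bases before the RefSeq start (GRCm38.p6) on the strand of the gene, with matches to a kappaB motif (GGG and TTTCC 2 bases apart, either strand) in capitals. They lie at chr5:90890995-90891214 (Cxcl1, plus), chr5:90903649-90903868 (Cxcl2, plus), chr5:90785851-90786070 (Cxcl3, plus) and chr1:83116516-83116735 (Ccl20, plus).
Cxcl1: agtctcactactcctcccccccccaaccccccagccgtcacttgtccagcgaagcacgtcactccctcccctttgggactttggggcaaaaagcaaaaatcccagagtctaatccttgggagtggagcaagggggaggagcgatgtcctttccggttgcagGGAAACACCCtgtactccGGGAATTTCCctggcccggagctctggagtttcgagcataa
Cxcl2: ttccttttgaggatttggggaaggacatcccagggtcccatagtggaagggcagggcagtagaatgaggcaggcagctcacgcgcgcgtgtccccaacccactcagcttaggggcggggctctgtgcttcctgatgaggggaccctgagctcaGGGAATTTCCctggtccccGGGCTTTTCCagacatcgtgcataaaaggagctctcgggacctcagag
Cxcl3: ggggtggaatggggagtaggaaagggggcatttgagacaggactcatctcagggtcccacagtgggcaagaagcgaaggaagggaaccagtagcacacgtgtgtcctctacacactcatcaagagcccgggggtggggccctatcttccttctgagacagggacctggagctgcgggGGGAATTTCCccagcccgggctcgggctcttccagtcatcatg
Ccl20: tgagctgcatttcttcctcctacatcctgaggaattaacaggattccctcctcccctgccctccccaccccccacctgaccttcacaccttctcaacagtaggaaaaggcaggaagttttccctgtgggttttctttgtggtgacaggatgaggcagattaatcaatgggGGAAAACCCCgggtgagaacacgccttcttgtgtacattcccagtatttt
Of 41 members with such a window, 5 held a match (these 4 and Ccr3), as did 1.17% of 32851 windows of all genes. Cxcl1 had matches 89 and 71 bases before the start, and Cxcl2 97 and 78. The motif was chosen after the ratios were known, and a match describes letters, not a bound site. The other members lower in fibroblasts or keratinocytes, among them Cxcl5, Cxcl9, Ccl7 and Ackr4, had no match or no window. Cxcl1 and Cxcl2 were higher in the other class II myeloid cells, with log2 ratios of 2.32 and 0.54. In the macrophage cluster led by Cd74 they had 1.34 and 0.94. A link of the motif to the ratios was not tested.

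Cxcl10 had no match to this kappaB motif, of which other spellings were not searched, and carried the letters of an interferon response element. Its window, chr5:92348920-92349139 (minus), holds a match, in capitals, to GAAA repeated 2 bases apart (either strand), 213 bases before the start.
Cxcl10: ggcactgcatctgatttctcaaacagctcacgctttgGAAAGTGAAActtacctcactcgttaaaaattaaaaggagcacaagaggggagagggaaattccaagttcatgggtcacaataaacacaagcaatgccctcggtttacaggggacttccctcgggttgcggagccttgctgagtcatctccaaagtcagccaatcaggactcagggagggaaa
Among the 41 members Ccl19 and Cxcl14 also held this motif, as did 2.63% of all windows.

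Other fibroblast ligands divided. Ccl7, a ligand of Ccr2, was at 877 and 594 CPM, a log2 ratio of -0.56 (-0.60 to -0.52). Cxcl9 was at 34.1 and 6.55 CPM, a log2 ratio of -2.37 (-2.69 to -2.08), and Ccl5 at 11.8 and 2.05 CPM, a log2 ratio of -2.51 (-3.09 to -2.0). Few cells carried them, with 10 cells holding 77.4% of the wildtype UMIs of Cxcl9 and 98.1% of those of Ccl5. Cxcl13, an attractant of B cells, was at 287 CPM (278 to 296) in wildtype and 486 CPM (476 to 496) in Eppk1-/-, a log2 ratio of 0.76 (0.71 to 0.82), and the 3 clusters with at least 50 UMIs all lay above 0. Ccl24, Ccl4 and Cxcr4 were also higher, with 5 and 84 UMIs, 22 and 91 UMIs and 65 and 135 UMIs. Ccl11, which attracts eosinophils through Ccr3, was at 678 and 632 CPM, a log2 ratio of -0.10 (-0.14 to -0.06).

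Fibroblasts also carried the other atypical receptors. Ackr3, which takes up Cxcl12, was at 536 CPM (524 to 549) in wildtype and 606 CPM (594 to 618) in Eppk1-/-, a log2 ratio of 0.18 (0.13 to 0.22). Only 1 of 5 clusters with at least 50 Ackr3 UMIs lay above 0, the C3 cluster at 0.12 (0.07 to 0.17). The other 4 lay below 0, in 2 with an interval below 0. Cxcl12 itself was at 906 and 898 CPM, a log2 ratio of -0.01 (-0.05 to 0.02). They stood high in different clusters. The C3 cluster had 970.3 and 1055 CPM of Ackr3 and 405 and 404 CPM of Cxcl12, and a cluster led by Col1a1 with 311 and 431 cells had 219 and 169 CPM of Ackr3 and 3197 and 2849 CPM of Cxcl12. Cxcr4, which signals for Cxcl12, was at 735 and 542 CPM in the other class II myeloid cells and 4.86 and 7.69 CPM in fibroblasts.

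Ackr2, which degrades inflammatory CC chemokines, was at 15.6 CPM (13.5 to 17.8) in wildtype and 25.6 CPM (23.3 to 28.1) in Eppk1-/- fibroblasts, a log2 ratio of 0.72 (0.48 to 0.96). In the C3 cluster its ratio was 0.83 (0.56 to 1.11). The only other cluster with at least 50 Ackr2 UMIs, led by Col1a1, had -0.27 (-1.11 to 0.58). Endothelial cells had 29 and 11 Ackr2 UMIs among 110362 and 132409 UMIs of all genes. Per UMI this was above the fibroblast level in both libraries, and lower in Eppk1-/- than in wildtype. It came from only 23 and 21 endothelial cells, and the wildtype UMIs all lay in cells gated as lymphatic. Ackr1, known from venules, was at 129.7 and 144 CPM in fibroblasts, a log2 ratio of 0.15 (0.06 to 0.24). Its clusters divided, with 2 of 5 above 0 and 3 below. The C3 cluster had 0.78 (0.64 to 0.94), and the Col1a1 cluster with 311 and 431 cells had -0.47 (-0.67 to -0.26). The endothelial level of Ackr1 was 362 and 219 CPM, from 3 of 23 wildtype and 2 of 21 Eppk1-/- cells.

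**Figure D4:**
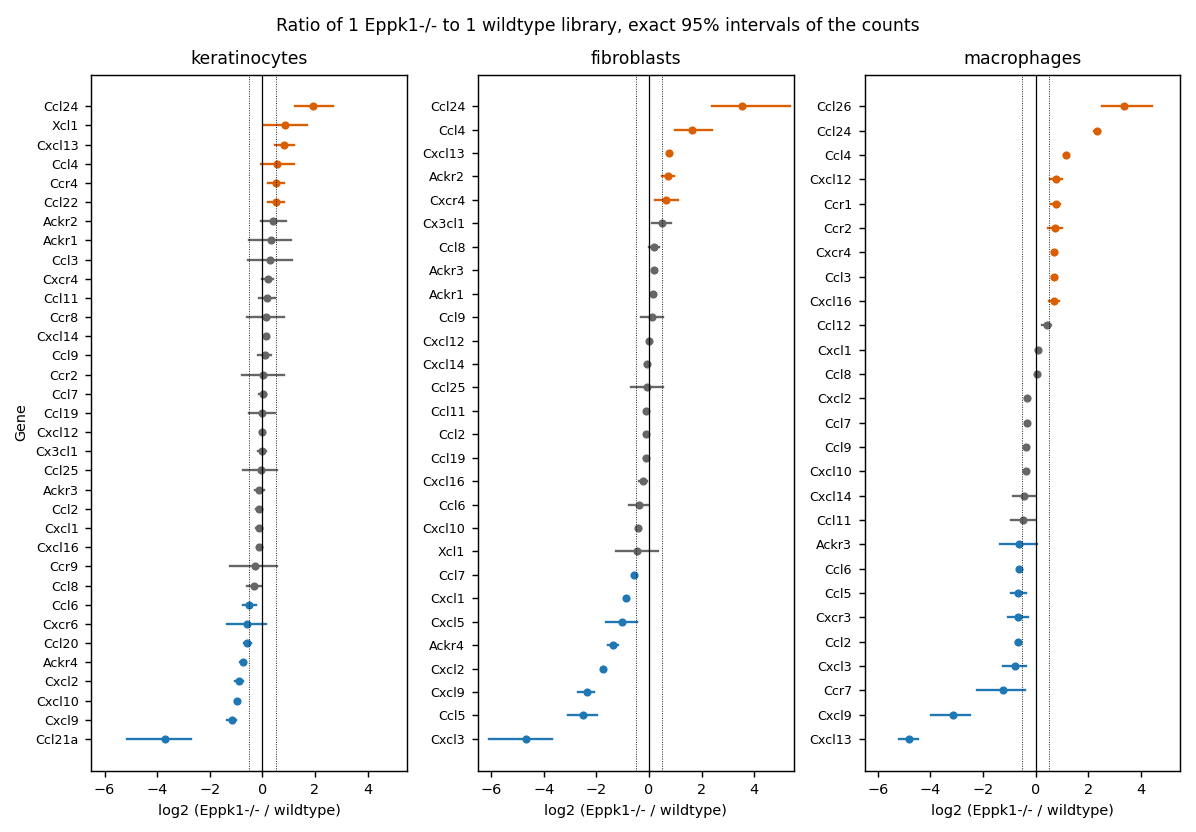
Log2 ratio of Eppk1-/- to wildtype (horizontal axis) for the named members with at least 50 UMIs (rows) in keratinocytes, fibroblasts and macrophages, with exact 95% intervals as lines and dotted lines at 0.5 in either direction. Ackr4 lies at -0.75 in keratinocytes and -1.37 in fibroblasts, and Cxcl13 at 0.76 in fibroblasts and -4.80 in macrophages.

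Of the 10 ligands that macrophages led, 8 were CC chemokines. Macrophages held 89.7% and 89.1% of the Ccl8 UMIs at 2929 and 3072 CPM, 88.4% and 80.9% of those of Ccl6 at 2540.4 and 1635 CPM and 84.6% and 75.6% of those of Ccl9 at 2131 and 1657 CPM. The inflammatory chemokines Ccl3 and Ccl4 were at 365 and 596 CPM and 781 and 1732 CPM. Cxcl2 was at 6627 and 5299.8 CPM in macrophages, which held 64.6% and 66.3% of its UMIs. Ccl7 was at 2265 and 1804 CPM and Ccl12 at 109 and 147 CPM, with 94.8% and 83.9% of the Ccl12 UMIs in macrophages.

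Of 28 members with at least 50 UMIs in macrophages, 9 were higher and 9 lower in Eppk1-/-, beside 26.2% of 9205 genes (6.83% higher and 19.4% lower). The members' median log2 ratio was -0.33 and that of all genes -0.13. Cxcl13 was at 476 CPM (457 to 496) in wildtype and 17.0 CPM (13.2 to 21.6) in Eppk1-/-, a log2 ratio of -4.80 (-5.18 to -4.46). Ccl24, a ligand of Ccr3, was at 156 CPM (145 to 168) in wildtype and 778 CPM (750.4 to 806) in Eppk1-/-, a log2 ratio of 2.31 (2.20 to 2.43), and after thinning 21.6% and 59.9% of macrophages had a UMI of it, beside 43.8% and 73.6% without thinning and 0.0793% and 0.413% of thinned keratinocytes. Ccl24 and Cxcl13 thus stood on opposite sides. The related Ccl26 had 12 and 104 UMIs. The other higher members were the ligands Ccl4 (1.15), Ccl3 (0.71), Cxcl12 (0.77) and Cxcl16 (0.69) and the receptors Ccr1 (0.75), Ccr2 (0.72) and Cxcr4 (0.71), with log2 ratios in parentheses. The other lower members were Cxcl9 (-3.16), Ccr7 (-1.23), Cxcl3 (-0.80), Ccl2 (-0.68), Cxcr3 (-0.67), Ccl5 (-0.66), Ccl6 (-0.64) and Ackr3 (-0.62), and the interval of Ackr3 included 0. At least 87.9% of the UMIs of Cxcl9, Ccr7 and Cxcl3 came from 10 cells per library.

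The macrophages of the libraries were divided differently among clusters. One, led by C1qa with F13a1 and Fcna, had 226 wildtype and 5 Eppk1-/- gated macrophages and may be a feature of that library. Another, led by Cd74, had 301 and 804, most of the 582 and 855 macrophages of the libraries. Within the Cd74 cluster the ratios of Cxcl13 and Ccl24 were -5.10 (-5.49 to -4.75) and 1.86 (1.71 to 2.02). Ccl4 and Ccr1 had 1.66 (1.56 to 1.76) and 2.0 (1.64 to 2.39) there. Ccl6 turned direction, at 904 and 1641 CPM in the Cd74 cluster with a log2 ratio of 0.86 (0.78 to 0.94), beside 3631 CPM in the wildtype C1qa cluster. Cxcl3 also turned, with 0.97 (0.12 to 2.0). For Cxcl16, at 0.07 (-0.15 to 0.30), and Cxcr3, at -0.20 (-0.72 to 0.36), the interval included 0 there, and Cxcl12 (0.45) and Ccl2 (-0.39) lay within the size limit. Cxcl2 and Cxcl10, lower over all macrophages at -0.32 and -0.38, had 0.94 (0.90 to 0.99) and 1.69 (1.5 to 1.88). Ccl8, near 0 over all macrophages, had -0.72 (-0.76 to -0.68). Of the same 7 early response genes, macrophages had log2 ratios above 0 for Egr1 (1.03), Hspa1a (0.85), Jun (0.73), Atf3 (0.67), Fos (0.54) and Fosb (0.33) and below 0 for Ier3 (-0.09), and their part in the result was not tested.

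**Figure D5:**
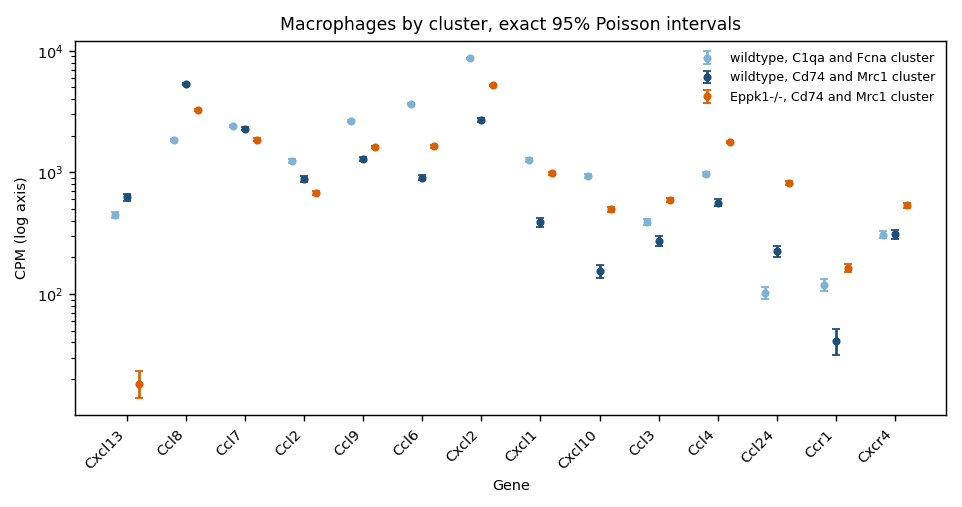
Level (CPM, log axis) of selected members in gated macrophages of the C1qa cluster (wildtype) and of the Cd74 cluster (wildtype and Eppk1-/-), with exact 95% Poisson intervals. Cxcl13 stands at 447 and 624 CPM in the wildtype clusters and at 18.1 CPM in Eppk1-/-.

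Lymphocytes were divided by Trdc, a gene of gamma delta T cells. Those with at least 2 Trdc UMIs numbered 118 in wildtype and 93 in Eppk1-/-. The others, which could still hold 1 Trdc UMI, were few, at 43 and 27 cells. Xcl1, which attracts dendritic cells bearing Xcr1, was at 1309.8 CPM (1182 to 1448) in wildtype and 1003 CPM (875 to 1144) in Eppk1-/- lymphocytes. The Trdc cells had 1602 and 1124 CPM and the other lymphocytes 417 and 646 CPM. Ccl5 was at 118 and 54.7 CPM in Trdc cells and 2209 and 1973 CPM in the others, and Ccr8 at 155 and 176 CPM and 1083 and 1291 CPM. Both libraries thus had Xcl1 on the Trdc side and Ccl5 and Ccr8 on the other. Cxcr6 was at 837 CPM (735 to 948) in wildtype and 899 CPM (778 to 1033) in Eppk1-/- lymphocytes, a log2 ratio of 0.10 (-0.17 to 0.38). Of 9 members with at least 50 UMIs in lymphocytes, Ccr6 was higher and Ccl4 lower, beside 19.4% of 2349 genes (10.1% higher and 9.32% lower). The Ccl4 log2 ratio was -0.91 (-1.91 to -0.04), from 38 and 15 UMIs.

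In Langerhans cells 16 members held at least 50 UMIs, with 3 higher and 6 lower beside 18% of 4855 genes (8.34% higher and 9.7% lower). Ccl22, made by activated dendritic cells, had 201 and 9 UMIs there, all from at most 10 cells per library. Ccl9 (-2.54), Ccl6 (-2.10), Ccl2 (-1.37), Cxcl9 (-2.81) and Cxcl10 (-0.59) were the other lower members, with log2 ratios in parentheses. Cxcl12 (2.64), Cxcl1 (2.08) and Ccl7 (0.79) were higher. For each of these 8 members 10 cells held at least 75.0% of the UMIs in either library, so the ratios rest on few cells.

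Among the other class II myeloid cells 18 members held at least 50 UMIs, with 8 higher and 2 lower beside 19.7% of 4178 genes (7.16% higher and 12.6% lower). Ccr2, a receptor of monocyte-derived cells, had a log2 ratio of 0.56 (0.23 to 0.91), Cxcl2 of 0.54 (0.45 to 0.62) and Ccl4 of 1.35 (0.88 to 1.86). Cxcl1, Cxcl10, Ccl5, Ccl7 and Ccl3 were also higher, with log2 ratios of 2.32, 1.17, 1.02, 0.93 and 0.75. Cxcl3 and Ccr1 were the lower members, at 183 and 39.8 CPM and 157 and 95.2 CPM. In mast cells Ccl2, a ligand of Ccr2, was at 1734 CPM (1512 to 1981) in wildtype and 1066 CPM (916 to 1234) in Eppk1-/-, a log2 ratio of -0.70 (-1.0 to -0.41), beside 22.8% of 1130 genes past the limit (12% higher and 10.8% lower). Fibroblasts nevertheless held 50.7% and 66.9% of the Ccl2 UMIs.

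Of 40 other genes of chemokine handling with at least 50 UMIs in keratinocytes, 4 passed the limit, beside 8.19% of all genes. Dpp4, a protease that trims chemokines, was higher at 5.46 and 8.43 CPM, a log2 ratio of 0.63 (0.34 to 0.91). Rgs1 and Rgs16, which shorten G protein signals, had -0.75 (-0.98 to -0.53) and -0.55 (-1.06 to -0.08), and the platelet chemokine Pf4 -0.75 (-1.12 to -0.40). The median of the 40 was 0.03. In fibroblasts 1 of 38 was higher (Rgs16) and 3 lower (Rgs1, Sdc4 and Cmklr1), beside 15.8% of all genes. In macrophages 3 of 39 were higher (Rgs2, Rgs16 and Cd74) and 4 lower (Gnai1, Pf4, Ccrl2 and Mif), beside 26.2%.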

How the data were processed

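The authors aligned the probe reads with Cell Ranger 8.0.1 to mm10 (GRCm38) and deposited UMI counts per gene and cell, unnormalized, for 1 wildtype and 1 Eppk1-/- library (77638793 and 65118304 UMIs). Cells were kept if they held between 200 and 45000 UMIs, detected between 100 and 7500 genes and had no more than 10% of UMIs from mitochondrial genes. The 13 mitochondrial genes were then left out. Cells were gated on fixed marker lists by a scoring rule set after the data were seen, and 96.4% of gated cells lay in a cluster of the same name. Read the other way, 54.8% of the cells in the other class II myeloid cluster were gated as that type. In the lymphocyte clusters, led by Srgn and Rgs1, 52.5% and 76.0% of cells were gated as lymphocytes. The 31 clusters came from 50 components of 2000 variable genes without the members (Leiden, resolution 1, scanpy 1.11.5). Counts were summed per cell type, and 0.5 UMI was added to each sum for log2 ratios. Scrublet itself called 2 wildtype and 217 Eppk1-/- cells and was not used as a filter, since it made almost no calls in wildtype. An alternative left out the highest 5% of scores.

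With 1 library per genotype no test was run, and a log2 ratio of 0.5 served as a size limit. Named were members that led a cell type, members past the limit with an interval without 0, the atypical receptors, and the ligands of Ackr4 with Ccr7 and Ccr9. The members and lists were chosen with earlier results of these data known, and clusters and early response genes were picked after values were seen. Python 3.11.15, scipy 1.17.1 and edgeR 4.0.16 (TMM factors only) were used. Promoter windows came from RefSeq and gene positions from GENCODE M21. Symbols of the rule that the count files do not list were not analysed here, and 1 member, counted in the totals, is not reported by name.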

Additional observations from a re-analysis of the deposited data

Results flagged for a closer look

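In 32 members the log2 ratio of Eppk1-/- to wildtype passed 0.5 in a cell type with an interval without 0. For 9 of them it did so in opposite directions in different cell types. The same count was not taken over all genes, so it describes these members only. Of all genes 8.19% (keratinocytes) to 26.2% (macrophages) passed 0.5 in a cell type. The differences between cell types were not tested, since each genotype had 1 library.

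Ccl22 differed by 4.73, with 0.53 in keratinocytes and -4.20 in Langerhans cells, where at most 10 cells per library held its UMIs. Cxcl13 differed by 5.63, with 0.84 in keratinocytes and -4.80 in macrophages. Under other processing the keratinocyte values of Ccl22 and Cxcl13 fell as low as 0.07 and 0.35. Ccl5 differed by 3.53, with 1.02 in the other class II myeloid cells and -2.51 in fibroblasts. Cxcl1 differed by 3.21 between the same types, with 2.32 and -0.88. Cxcl2 differed by 2.28 between them, with 0.54 and -1.74, and Ccl7 by 1.49, with 0.93 and -0.56. Ccl4 differed by 2.54, with 1.63 in fibroblasts and -0.91 in lymphocytes. Cxcl10 differed by 2.14, with 1.17 in the other class II myeloid cells and -0.97 in keratinocytes. Ccr1 differed by 1.47, with 0.75 in macrophages and -0.71 in the other class II myeloid cells.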

How the results depend on the processing

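No paired analysis was possible because each genotype had 1 library, and no replicate could be left out. The Ackr4 log2 ratio in keratinocytes ranged from -0.86 (cells thinned to 2000 UMIs) to -0.70 over the alternatives, beside -0.75. The share of keratinocytes with an Ackr4 UMI, 14.85% in wildtype and 9.08% in Eppk1-/-, was 25.95% and 16.43% without thinning and 9.35% and 5.97% after thinning to 1000 UMIs. Members past 0.5 numbered 15 of 35 in keratinocytes, 13 of 28 in fibroblasts and 18 of 28 in macrophages. Beside them stood 8.19%, 15.8% and 26.2% of all genes. With no minimum of UMIs these members numbered 32, 28 and 37. With at least 200 UMIs they numbered 9 in keratinocytes and 8 in fibroblasts. The share of all genes was not taken under these 2 minimums, so the changed counts are not a result about the members. Members with the same leading cell type numbered 33 of 41, and 30 of 36 after thinning, 30 of 37 with at least 200 UMIs and 39 of 52 with no minimum. Of the 40 signalling genes in keratinocytes 9 passed with every cell weighing the same, beside 4. The share of all genes was not taken with that weighting, so this change is not a result about these genes.

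Besides Ackr4 in keratinocytes, the alternatives covered 45 pairs of member and cell type past the limit, all in keratinocytes, fibroblasts or macrophages. Pairs whose interval included 0 were among them. Ratios in the other cell types were not taken under the alternatives. Of the 45 pairs, 35 kept their sign in all 10 alternatives. Of the 450 values of these 45 pairs, 98 kept their sign but left the interval of the main ratio. Several pairs kept their sign but fell inside the limit of 0.5 in some alternative. Among them were Ccl22 (0.07), Cxcl13 (0.35) and Ccr4 (0.26) in keratinocytes. Others were Cxcl16 (0.07) and Cxcr3 (-0.005) in macrophages and Cxcl5 (-0.28) in fibroblasts. In keratinocytes Ccl4 reversed to -0.45 without a filter on cells and -0.96 after thinning, Xcl1 to -0.075 after thinning and -0.12 without shared barcodes, and Cxcr6 to 0.74 with clusters in place of the gate. In fibroblasts Cxcr4 reversed to -0.68 with every cell weighing the same and -0.32 after thinning. In macrophages clusters in place of the gate gave 0.20 for Ackr3, 0.86 for Cxcl3, 0.46 for Cxcl9 and 0.75 for Ccr7, and leaving out the highest 5% of Scrublet scores gave 0.26 for Ackr3. Without clusters drawn over 90% from 1 library, an alternative chosen after seeing the data, Ccr2 was -0.23 and Ccl6 0.66. The cause was not tested.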
